A study of Mus musculus with 6 samples.

Results

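Cytosolic ribosomal proteins are the protein part of the ribosome in the cytoplasm. Their genes were taken from the deposited table of gene counts by symbol: Rpl or Rps followed by a number, together with Rpsa and the stalk genes Rplp0, Rplp1 and Rplp2. Kinases of the Rps6k family, Rps27l, pseudogenes and names with extra suffixes were dropped, 29 names in all. This left 77 genes of 24982 symbols, of which 43 belong to the large subunit, 3 to the stalk of the large subunit and 31 to the small subunit. Rpl26 was listed at 0 in all 6 libraries, and 75 of the 77 genes passed the filter on low counts.

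RNA was sequenced from splenic CD4+CD25+CD127lo T cells, named natural regulatory T cells (nTreg) in the titles, of B6.129 mice aged 8 to 10 weeks. In 3 libraries the mice were wild type (WT). In the other 3 they carried loxP-flanked Srsf1 and Cre recombinase driven by the distal Lck promoter, which is active in maturing T cells (genotype Srsf1-flox/flox dLck.Cre, here KO). Srsf1 is a splicing factor that binds exonic enhancers. All cells, WT and KO alike, were kept for 72 h with anti-CD3 and anti-CD28 at 2 µg/ml each and recombinant interleukin-2 at 10 ng/ml, so no resting cells were compared. The labels do not say how complete the deletion was.

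Ribosomal proteins are made in nearly equal numbers of copies, since each ribosome holds 1 of nearly every kind. Most of their mRNAs begin with a stretch of C and T bases, the terminal oligopyrimidine (TOP) motif, through which the kinase mTOR and the RNA-binding protein Larp1 control their translation. Stimulated T cells grow and raise ribosome production before they divide. Single members are known for roles beyond the ribosome, such as binding of Mdm2 by Rpl5 and Rpl11 when ribosome assembly is disturbed.

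The sequences around the transcription start are shown for 8 members on which the values below turn: the pair with the smallest p-values (Rps25, Rps3a1), the gene of the small subunit with all KO libraries above WT (Rps26), 4 genes far from the others in KO replicate 1 (Rplp2, Rpl13, Rpl39, Rpl5) and the gene with the most counts (Rpl4). Runs were counted within the 30 bases only, and that of Rps25 (7 bases) begins at the first base shown, so its full length is not given. Each is 30 bases, 5′ to 3′, with the first transcribed base of RefSeq's listed start at position 16, and capitals mark a run of at least 8 pyrimidines within them.
Rps25: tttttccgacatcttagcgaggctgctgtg
Rps3a1: ttaaagccggaagggcgaaagagcaagggt
Rps26: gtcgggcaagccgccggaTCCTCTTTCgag
Rplp2: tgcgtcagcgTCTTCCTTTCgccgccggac
Rpl13: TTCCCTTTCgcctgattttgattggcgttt
Rpl39: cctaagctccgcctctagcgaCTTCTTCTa
Rpl5: tctcacgtcgcttgcgtgctggtggtgcta
Rpl4: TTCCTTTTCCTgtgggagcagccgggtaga
They come from RefSeq on build GRCm38.p6, which is not the build of the counts (mm9). The stretches lie at chr9:44407699-44407728 (plus strand) for Rps25, chr3:86142654-86142683 (minus) for Rps3a1, chr10:128626492-128626521 (minus) for Rps26 and chr7:141447636-141447665 (plus) for Rplp2. Those of Rpl13, Rpl39, Rpl5 and Rpl4 lie at chr8:123102335-123102364 (plus), chrX:37085208-37085237 (minus), chr5:107900513-107900542 (plus) and chr9:64173372-64173401 (plus). Each spans the listed start of exon 1, so that the bases from position 16 on are the beginning of the 5′ untranslated region.

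RefSeq listed starts for 57 of the 77 genes, 67 starts in all. A run of at least 8 C or T bases lay in the 30 bases around 38.8% of these starts, against 12.003% of all 32851 listed mouse starts. Among 300 bases around the start (250 before, 50 after, both strands), the letters CTTTCC, which can lie within such a run, were found at 49.3% of the members' starts and 26.6% of all starts. The letters CCGGAAG, whose ends can overlap with those of CTTTCC, were found at 37.3% and 8.86%. A match is a description of the letters and not of binding.

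Total gene counts ran from 10183626 to 27562046 per library, and every KO library was shallower than every WT library. Of the 77 genes, 73 had at least 100 counts in some library, and the lowest count of these 73, the deeper members below, was 714 in any library. In CPM, counts of a gene scaled to equal library sizes, the Treg factor Foxp3 was at 160, 121 and 104 CPM in WT, against 464, 357 and 413 CPM in KO (log2 fold change 1.68, adjusted p = 0.197 by edgeR and 1.6e-06 by DESeq2). The T cell genes Cd3e (0.68) and Cd4 (0.70) also had all KO libraries above all WT libraries, though neither was called. They were 2 of 6 tested T cell genes, of which 4 had fold changes above 0 and 2 below (median 0.06). Among the 5 Treg genes, 3 were above 0 and 2 below (median 0.30, lowest -0.79). Of 4 CD8 T cell genes, Cd8b1 was 1 of 2 genes called in the whole table, with 75.3, 93.3 and 87.2 CPM in WT, against 13.5, 14.1 and 12.3 CPM in KO. Cd8a and Klrk1 also had fold changes below 0 (-1.92 for Cd8a), whereas Eomes was above 0 (0.85, unadjusted p = 0.0337). Markers of other cells were few: 9 macrophage genes summed to 1.99 to 5.92 CPM in WT, against 10.3 to 15.5 CPM in KO, with Csf1r, Lyz2 and C1qa at 0 in every library, and 6 B cell genes summed to 1.303 to 6.72 CPM. The 4 NK cell genes summed to 1.69 to 7.355 CPM in WT and 4.71 to 16.4 CPM in KO, and erythroid and platelet genes to at most 0.036 and 1.14 CPM. Their part in the values below was not tested. Srsf1 itself was measured at 1214, 1230 and 755 CPM in the libraries labelled WT and 438, 812 and 787 CPM in those labelled KO. The library labelled WT replicate 3 thus lay below 2 of the libraries labelled KO, and directions from KO to WT rest on the labels.

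KO replicate 1 stood apart from the other 5 libraries. Its log2 CPM correlated with those of the other libraries at r = 0.900 to 0.927 across all tested genes, while the other 5 correlated with each other at 0.945 to 0.989. Its mismatch rate per base was 0.52%, against 0.32% to 0.43% elsewhere. The main results and the medians of the pathway lists are therefore also given without this library.

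KO and WT cells were first compared by the share of all gene counts that these genes take. Cytosolic ribosomal protein genes held 4.83%, 5.004% and 5.23% of all gene counts in WT replicates 1, 2 and 3. They held 6.23%, 4.27% and 4.60% in KO replicates 1, 2 and 3. KO replicate 1 was thus above the WT range, and the other KO libraries were below it. The mean share was 5.02% ± 0.20 (SD, n = 3) in WT and 5.04% ± 1.05 (SD, n = 3) in KO, and 4.44% ± 0.24 (SD, n = 2) in KO without replicate 1. Wilson 95% intervals reached at most 0.0129 percentage points to either side of a share and cover counting error only. In the FPKM table (fragments per kilobase of transcript, scaled to depth, deposited by the authors) the same genes held 18.4%, 15.8% and 19.7% of the summed FPKM in WT and 22.96%, 16.2% and 18.5% in KO. On that scale KO replicates 2 and 3 lay within the WT range. In bulk RNA, fewer cells of a type and less RNA per cell cannot be told apart, nor can a lower share of these mRNAs and a higher output of other genes.

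**Figure D1:**
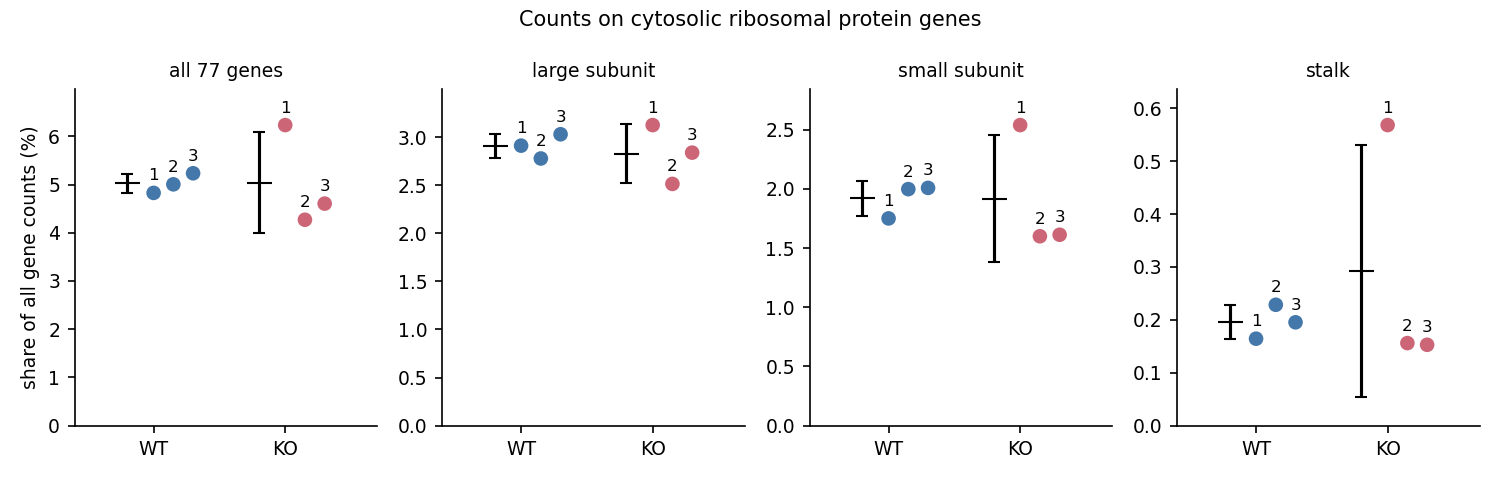
Share of all gene counts (percent, vertical axis from 0) on the 77 genes, the large subunit, the small subunit and the stalk. Points are single libraries with their replicate number, and bars are the group mean with its SD (n = 3). KO replicate 1 is the highest point in all 4 panels (6.23% over all genes), and KO replicates 2 and 3 lie below the WT points for all genes (4.27% and 4.60%) and for the small subunit.

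No member was called. The edgeR quasi-likelihood test called 0 of 75 members at an adjusted p under 0.05, and 0.017% of all genes tested (2 of 11772). The smallest adjusted p of a member was 0.660. At an unadjusted p under 0.05, 2 of 75 members were lower in KO (all genes: 2.76%) and 0 were higher (all genes: 4.75%). DESeq2, whose Wald test called 1.1% of all genes, also called 0 members. The median log2 fold change of the members, KO against WT, was -0.02, beside 0.02 over all genes, and 36 of 75 members were above 0. Standard errors of the 73 deeper members ran from 0.21 to 0.67 with a median of 0.28. A p above the threshold does not show that these genes were alike in both groups.

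Rps25, a small subunit protein known for initiation from internal ribosome entry sites, was measured at 648, 686 and 643 CPM in WT, against 450, 400 and 534 CPM in KO. All KO libraries were below all WT libraries. Its log2 fold change was -0.51 (SE 0.22, unadjusted p = 0.047, adjusted p = 0.660, edgeR), and -0.50 (SE 0.18, adjusted p = 0.418) without KO replicate 1. Rps3a1, a small subunit protein near the site where the mRNA leaves the ribosome, was measured at 879, 1030 and 973 CPM in WT, against 650, 664 and 728 CPM in KO. These groups did not overlap either. Its log2 fold change was -0.50 (SE 0.21, unadjusted p = 0.046, adjusted p = 0.660, edgeR).

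Groups that do not overlap were counted for every member. All KO libraries lay below all WT libraries for 9 of 75 members, against 8.18% of all genes tested, and above for 2 of 75, against 7.48%. Among the 9 were Rpl3, Rpl7, Rpl9, Rps3a1, Rps4x, Rps7, Rps15a and Rps25, and their fold changes ran from -0.17 (Rps7) to -0.51 on the log2 scale. Rpl3, which forms part of the peptidyl transferase region, was measured at 1195, 1389 and 1620 CPM in WT, against 1116, 1077 and 1083 CPM in KO. Rpl9 was measured at 1093, 1257 and 1229 CPM in WT, against 812, 898 and 948 CPM in KO, the lowest KO value being that of replicate 1. Rps4x, the X-linked Rps4 gene, gave 1034, 1344 and 1274 CPM in WT, against 982, 1019 and 912 CPM in KO. The nearest WT and KO libraries of Rps4x, at 1034 and 1019 CPM, were closer to each other than the extremes of either group. Among the 2 on the other side was Rps26, which contacts the mRNA upstream of the start codon. Rps26 was measured at 854, 641 and 682 CPM in WT, against 967, 886 and 893 CPM in KO, a log2 fold change of 0.34 (SE 0.23, adjusted p = 0.741, edgeR).

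**Figure D2:**
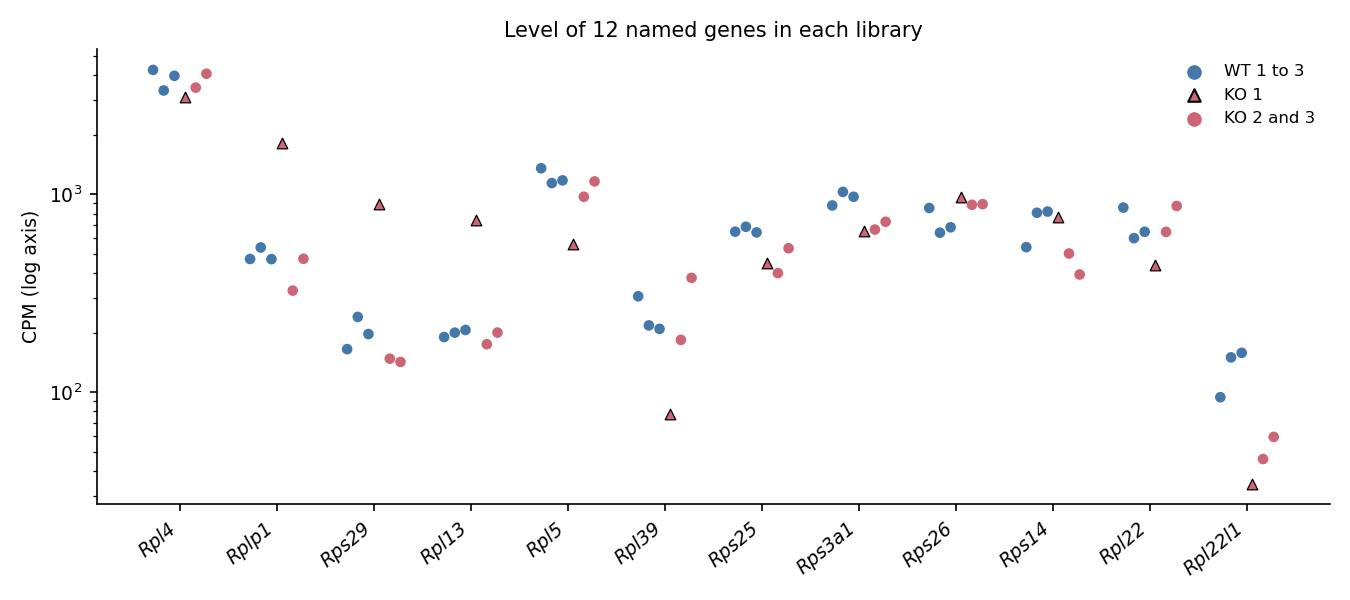
Level of 11 members and the paralog Rpl22l1 in each library, as normalised CPM on a log axis. WT libraries are blue circles, KO replicate 1 is an outlined triangle and KO replicates 2 and 3 are red circles. Rplp1, Rps29 and Rpl13 have KO replicate 1 far above all other libraries, Rpl39 and Rpl5 have it far below, and the KO libraries of Rps25, Rps3a1 and Rpl22l1 all lie below the WT libraries.

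Within KO replicate 1 the members lay on both sides of their WT level. The difference of each member from its WT mean, on the log2(CPM + 0.5) scale, had an SD of 0.78 over the 73 deeper members in this library, against 0.22 in KO replicate 2, 0.31 in KO replicate 3 and 0.10 to 0.20 in WT libraries. Each WT library is part of the WT mean, which by itself narrows the values of WT libraries beside those of KO. The same SD over all tested genes was 0.96 in KO replicate 1, 0.51 in KO replicate 2, 0.43 in KO replicate 3 and 0.22 to 0.37 in WT libraries. In every library it was thus larger than the SD of the members. In KO replicate 1, 13 of 73 members were over 2-fold above their WT mean and 3 were over 2-fold below it. No member was that far off in any other library. The share of all genes that far off was not counted, so these numbers are not set apart from it. The range ran from -1.63 for Rpl39 to 2.18 for Rps29.

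Rps29, a zinc-binding protein of the small subunit, was measured at 165, 240 and 197 CPM in WT, against 898, 148 and 142 CPM in KO. KO replicate 1 was thus 4.47-fold above the WT mean while the other KO libraries were below every WT library. Rpl13 of the large subunit gave 190, 200 and 206 CPM in WT, against 740, 175 and 200 CPM in KO. Rps19, the gene most often mutated in Diamond-Blackfan anaemia, gave 153, 195 and 175 CPM in WT, against 511, 150 and 147 CPM in KO. Its fold change over all libraries was 0.63 on the log2 scale (SE 0.47, adjusted p = 0.754, edgeR), and -0.23 (SE 0.15) without KO replicate 1.

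On the low side, Rpl39, a small protein in the wall of the exit tunnel, was measured at 305, 218 and 209 CPM in WT, against 77.5, 184 and 379 CPM in KO. Its lowest and its highest value were both from KO libraries. Rpl5, which joins the ribosome together with Rpl11 and the 5S RNA, was measured at 1356, 1141 and 1178 CPM in WT, against 562, 973 and 1163 CPM in KO. Rpl23a was the remaining member more than 2-fold below its WT mean, at 276 CPM in KO replicate 1 against 487 to 748 CPM in WT.

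**Figure D3:**
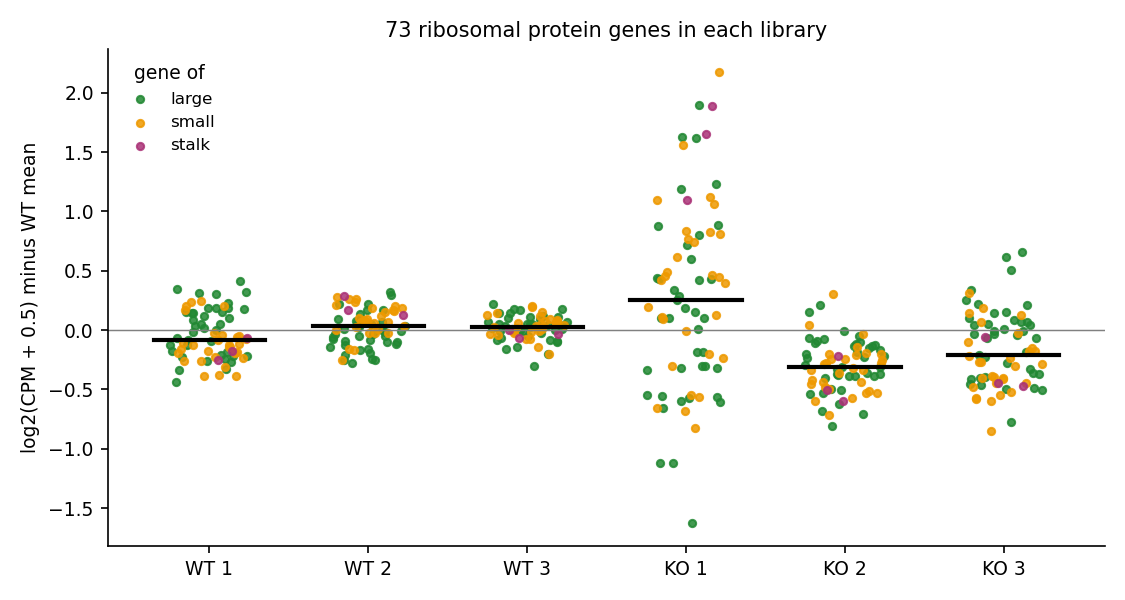
Difference of each of the 73 deeper members from its WT mean (log2(CPM + 0.5), vertical axis) in each library. Points are genes coloured by subunit and black lines are medians. Members spread widely in KO replicate 1 (SD 0.78), while in KO replicates 2 and 3 most lie below 0 (medians -0.31 and -0.21).

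Deviations in KO replicate 1 followed the GC content of the coding sequence. Across the 73 members, Pearson's r between coding GC and deviation was 0.80 in KO replicate 1, -0.07 in KO replicate 2 and -0.28 in KO replicate 3. In WT libraries it ran from -0.37 to 0.36. These correlations are across genes of 1 library, which share that library's depth and preparation and are not independent replicates. Over 11312 tested genes the same r was 0.74 in KO replicate 1, so the relation was not limited to ribosomal proteins. The 24 members with the lowest coding GC (45.1% to 50.7%) had a median deviation of -0.55 in that library, and 4 of them were above 0. The 25 in the middle had a median of 0.29. Of the 24 with the highest coding GC (54.8% to 61.6%) all were above 0, with a median of 0.84. After a correction for GC content and length of the transcripts, the SD of the members in KO replicate 1 was 0.64 in place of 0.78, and their median deviation was -0.03 in place of 0.25. The source of this relation was not tested.

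**Figure D4:**
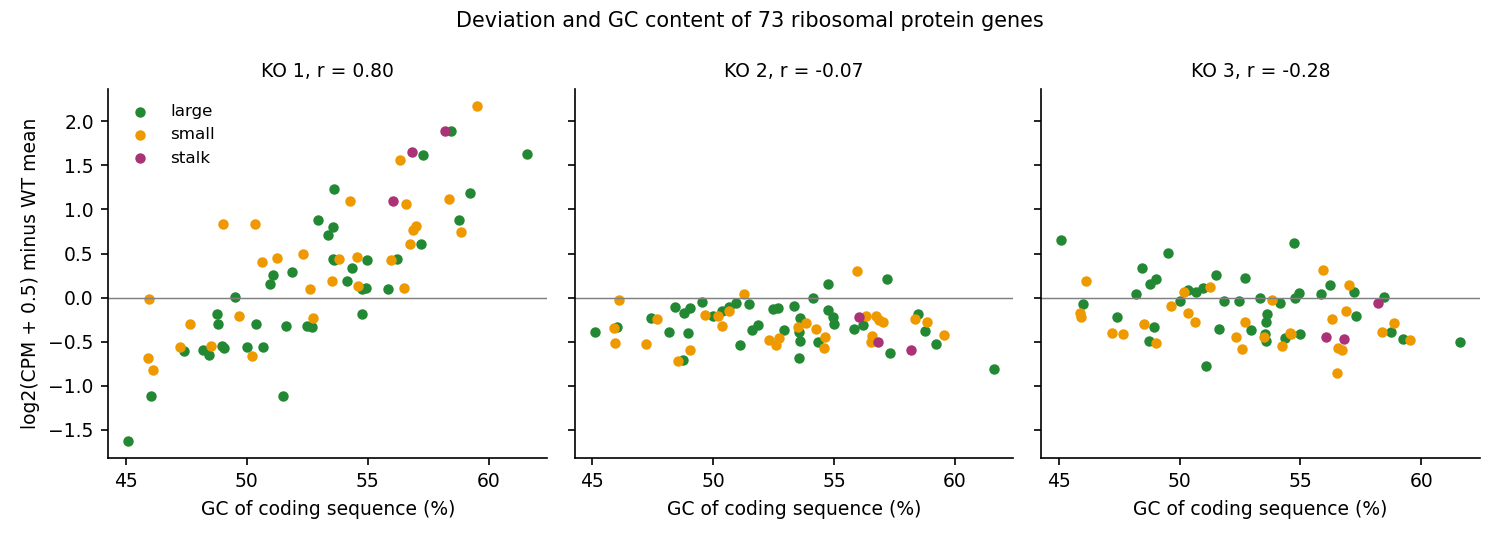
Deviation of the 73 deeper members from their WT mean (log2(CPM + 0.5), vertical axis) against the GC content of the coding sequence (percent, horizontal axis) in the 3 KO libraries. Points are genes coloured by subunit. The points climb with GC content in KO replicate 1 (r = 0.80) and show no such climb in KO replicates 2 and 3 (r = -0.07 and -0.28).

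In KO replicates 2 and 3 most members were lower than in WT. Of the 73 deeper members, 4 were above their WT mean in KO replicate 2 and 22 in KO replicate 3, with median deviations of -0.31 and -0.21. After the correction for GC content and length these were 15 and 25 members, with medians of -0.16 and -0.18. Both libraries lay below all WT libraries for 40 of 75 tested members, against 16.4% of all genes tested, and above all of them for 2 members, against 13.4%. This way of counting was chosen after KO replicate 1 was seen to stand apart. With the correction both libraries lay below all WT libraries for 28 of the 75 members, and the share of all genes is not given for that setting. Fitted without KO replicate 1, the median log2 fold change of the members was -0.30 (all genes: -0.03), 12 of 76 tested members were above 0, and 24 of 76 had an unadjusted p under 0.05, all of them lower (all genes lower: 5.25%). No member passed the adjusted threshold in this fit, which called 0.025% of all genes (3 of 11990), and the smallest adjusted p of a member was 0.314. With the correction as well, 15 of 76 members were lower at an unadjusted p under 0.05 (all genes: 5.05%), and the median was -0.20. In the FPKM table, centred on the median of all genes, both libraries lay below all WT libraries for 45 of 73 members, against 14.9% of all genes, with 38 genes in common, of the 40 and of the 45. With KO replicate 1 and WT replicate 3 both left out, the median was -0.21 (all genes: 0.00) and 17 of 75 members were lower at an unadjusted p under 0.05 (all genes: 5.55%).

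The member with that smallest adjusted p was Rpl36, at 90.55, 116 and 123 CPM in WT, against 336, 62.0 and 76.6 CPM in KO. For Rpl36 the log2 fold change was 0.53 (SE 0.58) over all libraries and -0.67 (SE 0.18) without KO replicate 1, so that 1 library set its sign. Rps14, a small subunit gene lost in the 5q- syndrome, was measured at 541, 808 and 819 CPM in WT, against 767, 503 and 394 CPM in KO. Without KO replicate 1 its log2 fold change was -0.69 (SE 0.23, adjusted p = 0.393, edgeR). Rpl10, which is among the last proteins to join the large subunit, was measured at 418, 695 and 626 CPM in WT, against 676, 389 and 331 CPM in KO, with -0.69 (SE 0.24, adjusted p = 0.414, edgeR) without KO replicate 1. In both genes WT replicate 1 was nearer to KO replicates 2 and 3 than to the other WT libraries.

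**Figure D5:**
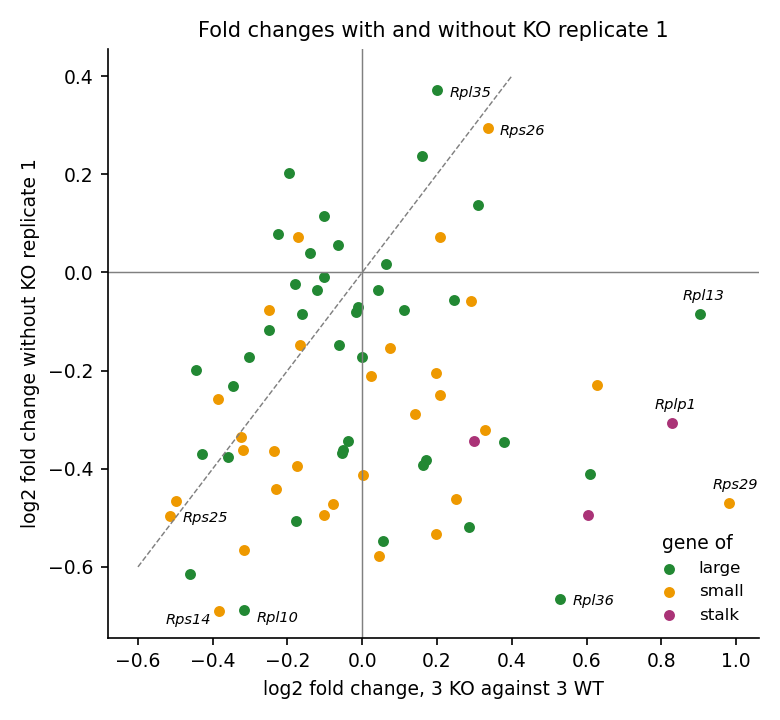
Log2 fold change of the 73 deeper members over all libraries (horizontal axis) against the value without KO replicate 1 (vertical axis). Points are genes coloured by subunit and the dashed line marks equal values. Rps29, Rpl13, Rplp1 and Rpl36 lie to the right of 0 and below it at once, and 61 of the 73 points lie below 0 on the vertical axis.

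By subunit, the small subunit genes made up 1.75%, 2.00% and 2.01% of all counts in WT and 2.54%, 1.60% and 1.61% in KO. Large subunit genes made up 2.91%, 2.78% and 3.03% in WT and 3.12%, 2.51% and 2.84% in KO. For the small subunit KO replicates 2 and 3 were below the WT range, whereas for the large subunit KO replicate 3 was within it. Both KO libraries lay below all WT libraries for 23 of 31 small subunit members and 16 of 41 tested large subunit members, against the 16.4% of all genes. The medians without KO replicate 1 were -0.36 and -0.16. Counts on the large subunit with the stalk were 1.76, 1.503 and 1.60 times those on the small subunit in WT and 1.45, 1.67 and 1.85 times in KO, a mean of 1.62 ± 0.13 (SD, n = 3) against 1.66 ± 0.20 (SD, n = 3). The ranges of this ratio overlapped, and the difference was smaller than the spread between replicates.

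The stalk proteins Rplp0, Rplp1 and Rplp2 recruit translation factors to the large subunit. Rplp0 was measured at 1004, 1462 and 1175 CPM in WT, against 2563, 1032 and 882 CPM in KO. Rplp1 gave 472, 539 and 471 CPM in WT, against 1830, 326 and 473 CPM in KO, and Rplp2 gave 252, 321 and 286 CPM in WT, against 898, 201 and 206 CPM in KO. KO replicate 1 was the highest library for each. All 3 fold changes were above 0 over all libraries (0.30, 0.83 and 0.60) and below 0 without KO replicate 1 (-0.34, -0.31 and -0.49), and none passed the test. These are genes of high coding GC (56.0% to 58.2%).

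Levels of different members were compared per length, as FPKM. The mean WT FPKM of the 73 deeper members ran from 93.6 (Rps15a) to 3042 (Rpl41), with a median of 1266. In counts the same pair was nearly equal in WT, with means of 599 CPM for Rps15a and 613 CPM for Rpl41. The transcript lengths taken for them here were 5130 and 544 bases, so the low end depends on the length assigned to Rps15a. Rpl41, the smallest ribosomal protein, was measured at 690, 575 and 576 CPM in WT, against 1002, 572 and 608 CPM in KO. Rpl4, a core protein of the large subunit, took the most counts, at 4259, 3353 and 3978 CPM in WT, against 3122, 3468 and 4075 CPM in KO, with 2460, 2123 and 2574 FPKM in WT. The next by counts were Rpl13a (1717 CPM over all libraries), Rpl23 (1375), Rps24 (1372), Rpl7 (1357), Rplp0 (1353), Rps3 (1295) and Rpl12 (1283), none of them past the test. Rpl12, which sits at the base of the stalk, varied least among these: 1208 to 1438 CPM over all libraries.

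Members with a role outside the ribosome or in signalling were read from the same test, and none passed it. Rps6, the substrate of the S6 kinases, was measured at 1079, 783 and 968 CPM in WT, against 592, 810 and 980 CPM in KO (log2 fold change -0.25, SE 0.27). Rpl11, the partner of Rpl5, gave 395, 470 and 519 CPM in WT, against 619, 350 and 377 CPM in KO. Rps3 and Rpsa, the latter named after the laminin receptor, had fold changes of -0.17 (SE 0.25) and 0.00 (SE 0.34) on the log2 scale. Rpl38, known from translation of Hox mRNAs, gave 194, 139 and 141 CPM in WT, against 157, 151 and 222 CPM in KO. Rps27a, made as a fusion with ubiquitin, gave 665, 710 and 738 CPM in WT, against 698, 492 and 603 CPM in KO. The groups of each of these genes overlapped.

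Of the remaining members with the smallest p-values, those on the low side included Rpl36a (-0.46, SE 0.25), Rps15a (-0.39, SE 0.23) and Rpl7 (-0.35, SE 0.22), the last pair among the 9 without overlap. On the high side the list included Rpl29 (0.61, SE 0.53), Rps28 (0.29, SE 0.30) and Rpl41 (0.25, SE 0.28). Of the latter, Rpl29 was at 117, 134 and 134 CPM in WT, against 394, 83.1 and 110 CPM in KO.

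WT replicates also differed among themselves along the family. Differences of the members between WT replicates 1 and 2 and differences between KO replicates 3 and 2, which share no library, had r = 0.66 across the 73 deeper members and 0.35 across all tested genes. Rpl10, Rpsa and Rplp0 were on the low side in both differences, and Rpl38, Rpl17 and Rpl23 on the high side. Many others had opposite signs in the WT and the KO difference, such as Rplp1 (-0.19 and 0.53) and Rpl36 (-0.36 and 0.30). Other pairs of WT libraries were not compared in this way. Rpl38 was higher by 0.48 in WT replicate 1 than in WT replicate 2 and by 0.55 in KO replicate 3 than in KO replicate 2, on the log2 scale.

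Among the 54 deeper members with a listed start, the 23 with a run of at least 8 pyrimidines, such as Rps26, Rplp2 and Rpl4 above, had median deviations of 0.10, -0.22 and 0.05 in KO replicates 1, 2 and 3. The 31 without such a run, such as Rps3a1 and Rpl5, had 0.42, -0.28 and -0.30. A run could lie anywhere in the 30 bases, and that of Rpl4 ends before the first transcribed base. A run that reaches past the edge, as that of Rps25 may, was counted only by its part inside. The split is thus not one of TOP against other mRNAs. The widest gap between the medians of the 23 and the 31 was in KO replicate 3, with that in KO replicate 1 close to it. WT libraries were not split in this way. A difference between replicates of 1 group can therefore not be told apart from one of KO.

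The following 4 members could not be read well from the counts. Rpl26, a large subunit protein known to bind Trp53 mRNA, had 0 counts in all libraries, which allows up to 3 counts or 0.109 to 0.295 CPM, yet was listed at 7.94, 10.6 and 9.71 FPKM in WT and 215, 6.32 and 0.0007 FPKM in KO. Rps27 had 3 to 44 counts per library but 1806 to 3345 FPKM. Rpl30 had 0 to 48 counts and Rpl34 had 1 to 98. Both were highest in KO replicate 1 in the FPKM table too, at 1001 FPKM against 16.2 to 41.3 in WT for Rpl30 and 305 FPKM against 30.8 to 66.0 in WT for Rpl34. The next lowest member, Rps10, was far above these at 81.4, 128 and 116 CPM in WT. Counts divided by transcript length and depth were below 10% of the WT FPKM for these 4 and for none of the other 73 members. The tables also differed for others: this ratio was under 0.5 for 30 of the 77 members, among them Rps10 (0.18), Rpl39 and Rpl35 (0.19 each) and Rpl18 (0.20). Ribosomal protein genes have many processed pseudogenes, and how reads with several matches were treated is not given in the sources used here for either table. Levels of these 4 are therefore uncertain, and those of the other members with a low ratio depend on the table.

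Genes that complete the ribosome under other names were read beside the members. Rack1, a scaffold on the head of the small subunit, gave 728, 1093 and 996 CPM in WT, against 1982, 733 and 624 CPM in KO. For Fau, a fusion of a ubiquitin-like protein with a small subunit protein, WT libraries were at 173 to 188 CPM and KO libraries at 145 to 283 CPM. Neither of them passed the test.

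Among paralogs that the symbols set apart, 6 of 10 in the table were tested and 0 were called by edgeR. Rpl22l1, the paralog that Rpl22 is known to repress, was measured at 94.3, 150 and 158 CPM in WT, against 34.5, 46.0 and 59.5 CPM in KO. All KO libraries were below all WT libraries. Its log2 fold change was -1.53 (SE 0.30, unadjusted p = 0.000748, adjusted p = 0.321, edgeR), -1.35 without KO replicate 1 (adjusted p = 0.185), and DESeq2 called it lower (adjusted p = 0.00218). Rpl22, which binds RNA and is needed for development of αβ T cells, was measured at 858, 601 and 647 CPM in WT, against 441, 647 and 874 CPM in KO, a log2 fold change of -0.10 (SE 0.30). The other tested paralogs had fold changes of -0.03 (Rpl7l1), -0.07 (Rps27l), -0.13 (Rpl36al), -0.77 (Rpl39l, at most 1.94 CPM) and 0.38 (Rps4l, at most 2.34 CPM). Rpl3l and Rpl10l were at 0 in 5 of 6 libraries each, and Rps27rt and Rpl34-ps1 had 0 counts in all. The FPKM table nevertheless listed Rpl34-ps1 at 672 to 1209 FPKM and Rps27rt at 0.54 to 219 FPKM, so their 0 counts do not show absence.

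Other genes of the pathway were read from fixed lists, and edgeR called 0 genes of each. Of 23 other TOP mRNAs, such as those of elongation factors, 9 had fold changes above 0, with a median of -0.10. Eef1b2, an exchange factor for elongation factor 1, was at 993, 1047 and 975 CPM in WT, against 808, 785 and 861 CPM in KO, without overlap. It was 1 of 6 among these 23 with all KO libraries below all WT libraries (all genes: 8.18%). All KO libraries lay above for 0 of the 23 (all genes: 7.48%). Of 11 noncoding TOP genes that host small nucleolar RNAs, 2 were above 0, with a median of -0.25. Snhg1 among them was at 102, 99.6 and 102 CPM in WT, against 32.7, 56.4 and 86.1 CPM in KO (-0.79, SE 0.33, adjusted p = 0.651, edgeR). Without KO replicate 1, 8 of the 23 TOP mRNAs (median -0.10) and 4 of the 11 noncoding genes (median -0.20) were above 0.

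Of 23 genes that control the supply of ribosomal proteins, such as Mtor, Larp1 and Myc, 10 were above 0 (median -0.12). Rps6ka3, a kinase of Rps6, had the smallest p of these (-0.97, SE 0.46, adjusted p = 0.669, edgeR). Of 30 chaperones, importins and assembly factors, 9 were above 0 (median -0.09), with Ipo7, an importin for ribosomal proteins, at 1033, 894 and 947 CPM in WT, against 286, 826 and 794 CPM in KO. In the 5S and p53 list, 4 of 6 were above 0 (median 0.04), and Trp53 was at 142, 149 and 122 CPM in WT, against 296, 159 and 154 CPM in KO. Of 17 genes of ribosome quality control, 8 were above 0 (median -0.04). Map3k20, the kinase ZAK that senses collided ribosomes, was at 131, 106 and 134 CPM in WT, against 42.4, 51.6 and 68.0 CPM in KO. The log2 fold change of Map3k20 was -1.20 (SE 0.25, adjusted p = 0.331, edgeR), and DESeq2 called it lower (adjusted p = 0.00726). Without KO replicate 1, 7 of the 23 supply genes (median -0.09) and 10 of the 30 chaperones, importins and assembly factors (median -0.08) were above 0. In the 5S and p53 list 2 of 6 were then above 0 (median -0.18), and in quality control 2 of 17 (median -0.12). The median over all genes was then -0.03.

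Mitochondrial ribosomal proteins, which build the separate ribosome of mitochondria, gave a comparison with another ribosome. Of 78 such genes, 45 had fold changes above 0, with a median of 0.05. Without KO replicate 1, 26 of 78 were above 0, with a median of -0.14, against -0.30 for the cytosolic members. Both KO replicates 2 and 3 lay below all WT libraries for 21 of these 78 genes, against 16.4% of all genes. The difference between these families was not tested.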

How the data were processed

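Gene expression was measured by RNA sequencing (75-bp reads) in 3 WT and 3 KO libraries of stimulated nTreg cells. Groups and replicate numbers come from the titles. The source field names effector CD4 T cells, but titles and sorting protocol name nTreg cells and were followed. Raw counts for each gene symbol, FPKM values and an alignment report with read totals and percent values were deposited by the authors. Per the file headers STAR 2.4.2a made the alignments, and mm9 was the build, per the submitters' processing notes. The sources used here do not give the counting tool, its strand setting or its treatment of reads with several matches.

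The main test was the quasi-likelihood F test of edgeR 4.0.16 (R 4.3.3) after TMM scaling. Genes were filtered by filterByExpr (minimum count 10), and p-values were adjusted over the 11772 genes left by Benjamini-Hochberg, with a threshold of 0.05. CPM are TMM-normalised. Fold changes are log2 values, KO against WT. DESeq2 1.42.0 and limma 3.58.1 (voom, or on log2(FPKM + 1) or log2(FPKM + 0.1)) were alternatives. Others were further scalings and filters, equal depth, sex, the replicate block and each library left out. A correction for GC content and length from GENCODE vM21 transcripts was another. Sex was inferred for each library from counts of Xist against those of Y-linked genes. The test was checked on counts simulated without a GC-linked shift or an outlying library. That check therefore does not show how the test fares with KO replicate 1. Dates replace the symbol of 26 entries (0.271% of counts), which count only in library sizes. Libraries are taken to be separate animals, since 3 mice of each genotype are given in the design text.

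The members, the lists and the alternatives were chosen with earlier results of these data known. Named were the 8 members with the highest and 4 with the lowest CPM above 0, the 10 with the smallest p in each direction, members at 0, paralogs, a fixed set of members with known roles, and up to 4 genes of each list with the smallest p. Rpl39, Rpl23a, Rpl17, Rpl18, Rpl35 and Rps7 fell outside this rule and were chosen after their values were seen, as were the T cell marker genes. Some genes that the rule names are not reported here.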

Additional observations from a re-analysis of the deposited data

Results flagged for a closer look

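Rpl26, which had 0 counts in all libraries, was listed at 214.9 FPKM in KO replicate 1 in the FPKM table, against 7.94 to 10.6 FPKM in WT. It drew attention as signal in a table outside the main measurement, above the level in control libraries. Rpl30 and Rpl34, which had few counts, were likewise highest there, at 1001 and 305 FPKM. Groups of 3 libraries are too small for a test of single outlying libraries.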

How the results depend on the processing

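No member of the family was called under any alternative (smallest adjusted p 0.173). Of all genes, 2 were called in the main analysis. This became 6 without a filter, 17 with the GC and length correction, 0 with sex as a covariate, 80 with 2 against 2 libraries (KO replicate 1 and WT replicate 3 left out), 129 with DESeq2 and 1 with voom, and 0 to 3 with 1 library left out. Members above 0 numbered 36, and 23 with the GC and length correction, 12 with 2 against 2 libraries, 22 with the correction and KO replicate 1 left out (chosen after the data were seen), and 12 to 45 with 1 library left out. The members' median ran from -0.30 to 0.09 over libraries left out, the lowest being without KO replicate 1. The mean share of KO minus WT was 0.0141 percentage points in counts and 1.22 in FPKM, and -0.58 to 0.40 in counts with 1 library left out. Members wholly lower in KO were 9, and 5 when scaled by library size alone, and those wholly higher were 2, and 1 with upper quartile, library size or TMM without these genes, or the GC and length correction (all chosen after the data were seen).

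Signs turned beyond 1 standard error for 5 named genes. Without KO replicate 1, with 2 against 2, and with the correction and KO replicate 1 left out, the values were -0.41, -0.36 and -0.29 for Rpl29, -0.31, -0.32 and -0.20 for Rplp1, -0.49, -0.48 and -0.39 for Rplp2, and -0.47, -0.46 and -0.37 for Rps29. Those of Rps19 were -0.23 and -0.21 in the first pair of settings. With 1 library left out the values reached 0.97 (Rpl29), 1.22 (Rplp1), 0.94 (Rplp2), 0.91 (Rps19) and 1.37 (Rps29), each without KO replicate 2. The cause was not tested.

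Deviations of same-numbered WT and KO libraries from their group means had r = -0.36, 0.15 and 0.14. KO replicate 1 weighs on the mean of its group, so these values cannot show whether the numbers pair libraries. With the replicate block 1 gene was called, and 114 with the block and the GC and length correction, where 20 members were above 0. The block called 0 members. Low counts limit Rpl26, Rpl30, Rpl34 and Rps27.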
